A study of Mus musculus with 2 samples.

Results

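Cells with the transcripts of megakaryocytes were picked out of lineage-negative Kit-positive fetal liver cells from E14.5 C57BL/6 mouse embryos, a sort that holds blood stem and progenitor cells. Members were chosen by their UMIs (counted transcript molecules) of marker genes: a member had at least 10 raw UMIs of Pf4 and at least 5 of Itga2b, Plek and Rab27b together, and stayed below limits on granulocyte and mast cell genes. Those limits were fewer than 30 UMIs of Mpo and Prtn3, fewer than 30 of S100a8 and S100a9, and fewer than 4 of Ms4a2, Mcpt8, Gzmb and Fcer1a. In all, 107 of 14101 kept barcodes were members, 63 of 7001 from the Brd9 knockout library and 44 of 7100 from the control library. The knockout embryos carried Vav1-iCre, a recombinase driven in blood cells, and 2 floxed Brd9 alleles, while the control embryos carried the same floxed alleles without the recombinase, and all were CD45.2-positive. BRD9, a bromodomain protein, is a defining subunit of the non-canonical form of the BAF nucleosome remodeller. A library with the recombinase but unfloxed Brd9 was not analysed here, so effects of the recombinase and those of losing Brd9 cannot be told apart. How many embryos were pooled is not stated in the labels. With 1 library per genotype, differences have no replicate check, and none comes with a p-value. Intervals are at 95% and reflect counting error alone.

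Megakaryocytes are the large polyploid cells that shed platelets. They arise from stem cells directly or through a progenitor shared with red cells, and fetal liver is a main site of their production before birth. As they mature they switch on the fibrinogen receptor made of Itga2b and Itgb3, the von Willebrand factor receptor made of Gp1ba, Gp1bb, Gp9 and Gp5, and granule cargo such as Pf4 and Vwf. The transcription factors Gata1, Fli1, Runx1, Nfe2 and Gata2 are known to control this set of genes.

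The proximal promoters of 4 of these genes are given because GATA and ETS sites there are textbook features of megakaryocyte genes. Pf4 and Itga2b define the gate, and Gp9 and Gp5 were not used by it. Each sequence holds the 250 bases before the gene's start in RefSeq on GRCm38.p6, written 5' to 3' on the gene's strand. Capitals mark a match to GATAA, the core read by Gata1 and Gata2, or to AGGAAG, a core read by ETS factors such as Fli1, on either strand, with a match on the reverse strand shown as its complement. The windows are chr5:90772185-90772434 on the plus strand for Pf4, chr11:102469884-102470133 on the minus strand for Itga2b, chr6:87777820-87778069 on the plus strand for Gp9 and chr16:30310782-30311031 on the minus strand for Gp5.
Pf4: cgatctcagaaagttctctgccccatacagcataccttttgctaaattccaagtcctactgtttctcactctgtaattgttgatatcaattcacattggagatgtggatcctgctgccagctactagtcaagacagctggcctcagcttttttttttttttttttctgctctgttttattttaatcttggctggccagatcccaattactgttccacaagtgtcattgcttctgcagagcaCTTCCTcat
Itga2b: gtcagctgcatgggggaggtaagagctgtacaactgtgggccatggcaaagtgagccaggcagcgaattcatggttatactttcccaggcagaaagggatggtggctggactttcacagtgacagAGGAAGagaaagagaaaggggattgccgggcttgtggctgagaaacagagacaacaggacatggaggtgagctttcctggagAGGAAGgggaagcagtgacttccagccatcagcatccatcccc
Gp9: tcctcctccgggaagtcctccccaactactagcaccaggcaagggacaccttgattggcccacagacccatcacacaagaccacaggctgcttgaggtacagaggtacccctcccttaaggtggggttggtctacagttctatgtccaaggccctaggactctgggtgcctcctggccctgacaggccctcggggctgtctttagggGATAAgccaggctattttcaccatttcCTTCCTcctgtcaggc
Gp5: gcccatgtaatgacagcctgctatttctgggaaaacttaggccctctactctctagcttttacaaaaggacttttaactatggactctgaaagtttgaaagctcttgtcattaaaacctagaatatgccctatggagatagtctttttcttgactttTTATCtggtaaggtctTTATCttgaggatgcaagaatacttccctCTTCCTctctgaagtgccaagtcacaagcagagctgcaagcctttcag
Pf4 held 0 GATAA and 1 AGGAAG match, from 9 to 4 bases before the start. Itga2b held 0 and 2, Gp9 held 1 and 1, and Gp5 held 2 and 1. Of 32851 such windows in RefSeq, 22.6% held GATAA, 29.5% held AGGAAG and 6.58% held both, so these letters are common. No motif overlapped another in the 4 windows. A match describes the sequence and is not evidence of binding, and a window without a match says nothing of the factor.

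Pf4 (chr5:90772435-90773383, plus strand), a chemokine stored in platelet granules, stood at 0 UMIs in 6639 of the kept knockout and 6843 of the kept control barcodes. Members spanned 10 to 776 UMIs with a median of 87 in knockout cells, and 10 to 682 with a median of 56.5 in control cells. These values chose the cells and are given as a description. The summed UMIs of Itga2b, Plek and Rab27b ran from 8 to 98 with a median of 33 in knockout members, and from 13 to 100 with a median of 44.5 in control members. The Pf4 limit decided nearly every case: 63 knockout and 45 control barcodes reached it, and 1 control barcode then failed the limit on Mpo and Prtn3. Just outside, 10 knockout and 7 control barcodes met every other limit with 5 to 9 Pf4 UMIs. Their median Pf4 was 6.5 UMIs in knockout and 8 UMIs in control cells, with medians of 29.5 and 29 for the other 3 genes together. Just inside, with 10 to 19 Pf4 UMIs, stood 10 knockout and 10 control members, whose medians were 15.5 and 13 UMIs of Pf4 and 25.5 and 26 UMIs of the other 3 genes. No barcode sequence that the 2 libraries shared, 15 in all, belonged to a member.

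**Figure D1:**
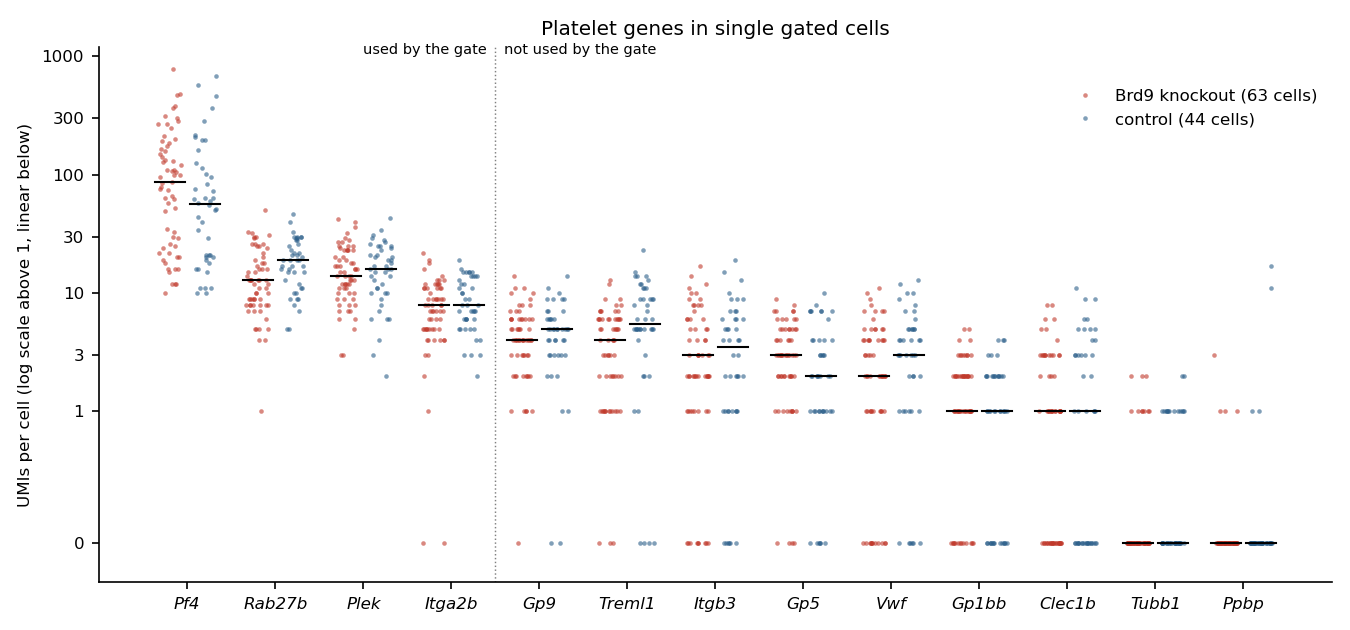
UMIs per member cell, on an axis that is logarithmic above 1 and linear below, for the 4 genes that the gate requires (left of the dotted line) and 9 platelet genes that it does not use, with the Brd9 knockout left of the control. Each point is a cell and each bar a median; cells of both libraries overlap for every gene, and Pf4 spans 10 to 776 UMIs in knockout and 10 to 682 UMIs in control cells.

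The label was checked against 15 megakaryocyte markers that the gate did not use. Members had a UMI of a median of 11 of them in the knockout (6 to 13) and of 10 in the control (6 to 14). At least 8 were found in 61 of 63 knockout and 42 of 44 control members, against 52 of 6938 (0.749%) and 34 of 7056 (0.482%) of the other kept cells. Rgs18, a regulator of G protein signalling, and Fli1 had a UMI in all 63 knockout and all 44 control members. Gp9, the small subunit of the von Willebrand factor receptor, had one in 62 knockout and 42 control members, Gata1 in 61 and 42, F2rl2, a thrombin receptor, in 61 and 41, and Treml1, an alpha granule membrane receptor, in 60 and 40. Gp5 followed in 59 and 38, Nfe2 in 58 and 38, Itgb3 in 54 and 38 and Vwf in 51 and 38. Clec1b, the podoplanin receptor, had a UMI in 39 knockout and 25 control members, and Gp1ba in 29 knockout and 17 control members. Tubb1, Ppbp and Gp6 were found in the fewest cells. Tubb1, the beta tubulin of the platelet ring, had a UMI in 10 knockout and 15 control members, Ppbp, a platelet chemokine, in 4 and 4, and Gp6, the collagen receptor, in 3 and 2. These counts bear out the label, for cells that mostly lacked UMIs of Tubb1, Ppbp and Gp6.

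Depth matters for such shares, so cells were also thinned to 18631 UMIs each, which left out 3 knockout and 2 control members. In thinned members Gp9 had a UMI in 83.3% of knockout and 92.9% of control cells, against 13.1% and 11.7% of globin-rich cells (2312 knockout and 2352 control cells with the most alpha-globin), where these genes should be off. Gp5 had one in 83.3% of knockout and 73.8% of control members, against 3.82% of knockout and 1.84% of control globin-rich cells. Free RNA in the droplets can give a low share of this kind in cells that lack a gene, but its part here was not tested. Members were about as deep in both libraries. Their median was 30111 UMIs (13234 to 110065) in the knockout and 29271 (13065 to 85466) in the control, with 5823 and 5816.5 genes per cell.

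**Figure D2:**
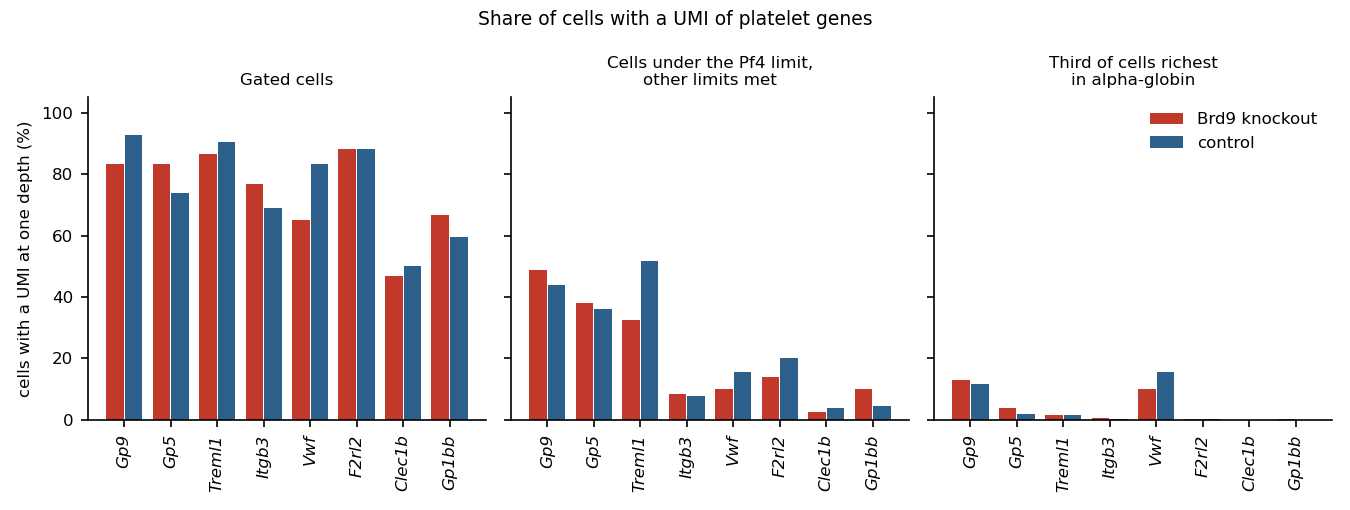
Share of cells with a UMI, in percent, at 1 common depth for 8 platelet genes not used by the gate, in members (left), in cells under the Pf4 limit that met the other limits (middle) and in globin-rich cells (right), with the Brd9 knockout left of the control. Gp5 is found in 83.3% of knockout and 73.8% of control members, and in 3.82% of knockout and 1.84% of control globin-rich cells.

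Megakaryocyte cells made up 0.900% of kept knockout barcodes (0.692 to 1.15) and 0.620% of kept control barcodes (0.451 to 0.831). The ratio was 1.45, and its interval of 0.989 to 2.13 included 1. The call depended on the gate. With a Pf4 limit of 5 UMIs the ratio was 1.45 (1.02 to 2.07), with a limit of 20 UMIs 1.58 (1.03 to 2.43), and with a gate that put Ppbp, Gp9 and Gp1bb in place of Pf4 it was 1.76 (1.25 to 2.49), and these 3 intervals lay above 1. The wider population with at least 5 UMIs of Itga2b, Plek and Rab27b under the same limits, whatever its Pf4, held 7.16% of knockout barcodes (6.56 to 7.79), against 3.96% of control barcodes (3.52 to 4.44), a ratio of 1.81 (1.57 to 2.08). Cells of that population with fewer than 10 Pf4 UMIs numbered 438 in the knockout and 237 in the control, and below they are called Pf4-low neighbours. The mix of sexes differed between the libraries. By Xist, 58.4% of the knockout cells kept were female, against 22.5% of the control cells kept, and so were 38 of 63 knockout and 14 of 44 control members. Within female cells the share was 0.929% in the knockout and 0.876% in the control, a ratio of 1.06 (0.576 to 1.95). Within male cells it was 0.728% and 0.564%, a ratio of 1.29 (0.728 to 2.29). Scrublet, a doublet caller, marked 7 knockout and 2 control members, whose median depth was 80307 and 70399.5 UMIs, against 28421 and 28532.5 UMIs in the other members. Without the cells it marked, the ratio was 1.36 (0.912 to 2.02). In all, 5 knockout members and 0 control members held transcripts of both sexes, and these 5 cells gave 20.5% of the summed UMIs of knockout members.

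The targeted gene was low in the members. Brd9 (chr13:73937811-73960895, plus strand) had 7 UMIs in 6 of 63 knockout members and 38 UMIs in 26 of 44 control members. As counts per 1e+06 UMIs summed over members (CPM), this was 3.28 (1.32 to 6.76) in knockout and 26.0 (18.4 to 35.6) in control members. The log2 ratio of knockout over control was -2.99 (-4.39 to -1.80), against -1.94 in all other kept cells. The reads come from transcript 3' ends and the floxed exons are not named in the labels, so the UMIs that remain need not come from intact transcript. Bicra and Bicral, the other subunits specific to the same complex, had log2 ratios of 0.14 (-0.41 to 0.70) and 0.21 (-0.48 to 0.93), and both intervals included 0. Of 25 listed subunits of the other BAF complexes, 16 reached 50 CPM, with 6 above and 10 below 0. Phf10, a PBAF subunit, was the highest of those named at 0.39, and Bcl7a, a shared subunit, the lowest at -0.46.

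Levels were then compared gene by gene between knockout and control members, from 2134893 and 1463442 summed UMIs. Among 3726 genes that reached 50 CPM in 1 library or both, 0.0537% (2 genes) were 2-fold or more higher in the knockout and 0.268% (10 genes) 2-fold or more lower. The ratio was above 0 for 50.3% and below 0 for 49.7%, and the median log2 ratio was 0.00, with 5th and 95th percentiles of -0.40 and 0.36. The 2 genes past 2-fold higher were Slc29a1 and Pold2. The 10 past 2-fold lower were Sardh, Muc13, Dach1, Apoe, Inpp4b, Ext1, Tgfbr3, Hbb-bt and the predicted genes Gm13986 and Gm15915. A looser limit of 0.5 on the log2 scale, chosen after seeing the data, held 1.77% of genes on the higher side and 2.50% on the lower side. A gene could reach the minimum through either library, so counts over such genes are descriptions. The sums mix sexes unequally, since female cells supplied 52.1% of the knockout sum, against 27.1% of the control sum. Of 66 named genes whose interval lay clear of 0, 20 were clear on the same side in both sexes, 32 in 1 sex and 14 in neither, where fewer cells also widen the interval. Without the cells that Scrublet marked, 62 of the 66 kept their sign, and 18 shrank by over 1.5 times or turned. The part of sex and of doublets in the ratios was not tested further.

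Among the 12 genes ranked lowest, the lowest ratio belonged to Sardh, the mitochondrial sarcosine dehydrogenase (chr2:27188393-27248337, minus strand). It had 0 to 5 UMIs per cell with a median of 1 in knockout members, and 0 to 13 with a median of 4 in control members. Summed, this was 43.1 CPM (34.7 to 52.9) in knockout and 141 CPM (122 to 161) in control members, a log2 ratio of -1.71 (-2.08 to -1.35). The cell ranges overlapped, but 43 of 63 knockout cells held Sardh at all, against 42 of 44 control cells. In Pf4-low neighbours, where Sardh was far scarcer at 4.22 CPM in knockout and 15.3 CPM in control cells, the ratio was -1.86 (-2.31 to -1.42). Within female members it was -2.02 and within male members -1.85.

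Muc13, a membrane mucin, Dach1, a transcriptional cofactor, and Apoe, the lipid carrier, were lower in members as they were in the rest of the libraries. Apoe (chr7:19696109-19699188, minus strand) ran from 0 to 28 UMIs per cell with a median of 4 in knockout members, and from 1 to 83 with a median of 13.5 in control members. It stood at 182 CPM (164 to 201) in knockout and 485 CPM (450 to 522) in control members, a log2 ratio of -1.42 (-1.60 to -1.24), against -1.04 in the other kept cells. All 44 control members held Apoe, as did 53 of 63 knockout members. Muc13 stood at 31.9 CPM in knockout and 90.2 CPM in control members, a log2 ratio of -1.50 (-1.95 to -1.07), against -1.77 in the other cells. Dach1 stood at 44.0 CPM in knockout and 123 CPM in control members, a log2 ratio of -1.48 (-1.86 to -1.11), against -1.10 in the other cells. Dach1 was uneven, with a UMI in 24 of 63 knockout and 29 of 44 control members.

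Inpp4b, a phosphatase of phosphoinositide lipids (chr8:81342556-82127914, plus strand), went the opposite way in members and in the other cells. Knockout members had 0 to 17 UMIs with a median of 3, and control members 0 to 70 with a median of 5. The sums were 131 CPM (116 to 147) in knockout and 331 CPM (303 to 362) in control members, a log2 ratio of -1.34 (-1.56 to -1.13). In the other kept cells the ratio was 0.41 (0.35 to 0.47), and the ratio in members minus that in the others was -1.75 (-1.98 to -1.53). In Pf4-low neighbours it was 0.20 (0.05 to 0.35). The highest control cell gave 14.4% of the control UMIs. By sex the ratio was -0.40 (-0.79 to -0.01) in female and -1.58 (-1.97 to -1.22) in male members.

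Plcb1, a phospholipase C of G protein signalling, Ank3, a membrane-skeleton ankyrin, and Pdlim5, a PDZ and LIM domain protein, also stood below 0 in members and above 0 elsewhere. Plcb1 was at 69.3 CPM in knockout and 137 CPM in control members (log2 ratio -0.99, -1.30 to -0.67), against 0.59 (0.45 to 0.73) in the other cells. In the control, 1 cell gave 23.4% of the control Plcb1 UMIs. Ank3 gave -0.89 (-1.22 to -0.56) against 0.44 (0.21 to 0.68), and Pdlim5 -0.95 (-1.33 to -0.57) against 0.17 (0.12 to 0.22). The other genes among the 12 lowest were Ext1, a heparan sulfate polymerase, Tgfbr3, the betaglycan coreceptor of TGF-beta, Cavin2, a caveolar coat protein of platelets, and Dlg2, a membrane scaffold. Ext1 gave a ratio of -1.04 (-1.30 to -0.79), Tgfbr3 -1.03 (-1.31 to -0.75), Cavin2 -0.99 (-1.28 to -0.71) and Dlg2 -0.82. In the other kept cells Ext1 gave -0.22, Tgfbr3 -0.00, Cavin2 -0.37 and Dlg2 0.06. All 12 lay below 0 in female and in male members, though the interval included 0 in female members for Tgfbr3, Cavin2, Plcb1 and Ank3 and in male members for Pdlim5. These genes were picked for low ratios in members, so their distance from the other cells is partly set by the choice and is given without a test.

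**Figure D3:**
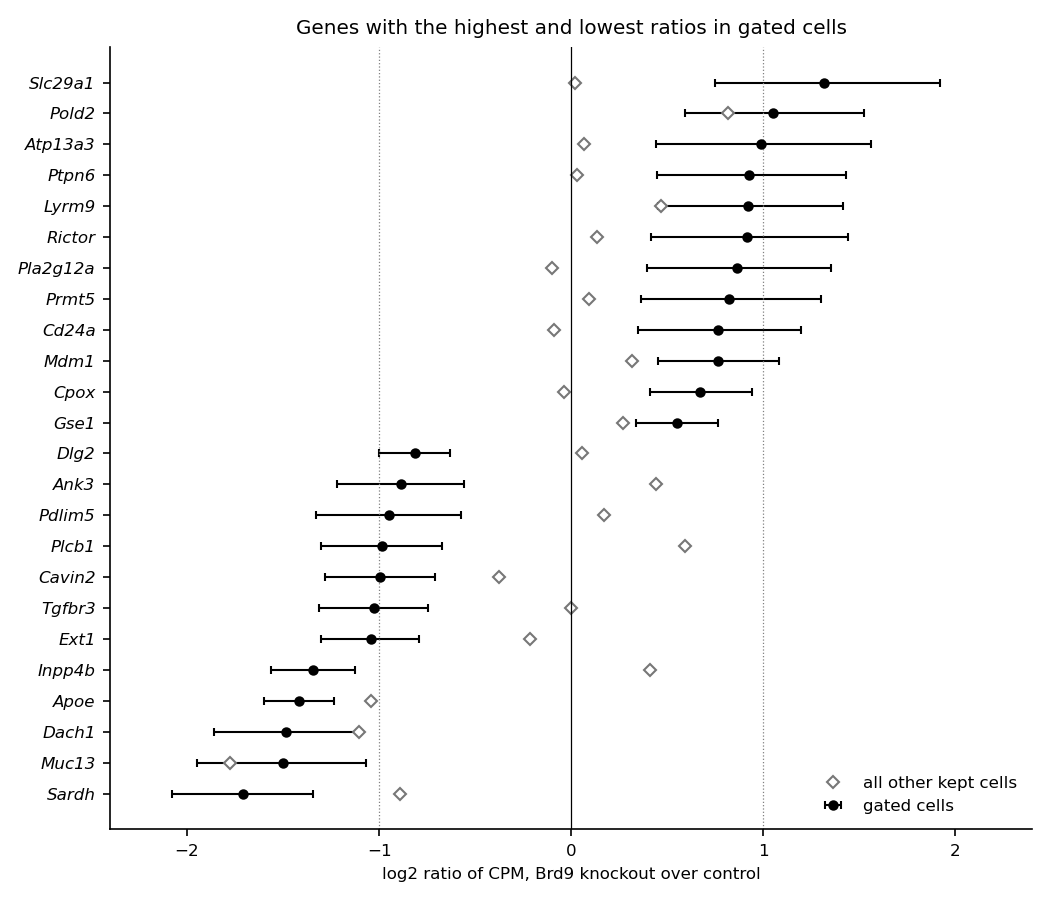
Log2 ratio of knockout over control CPM for the 12 highest and 12 lowest genes in members (filled, with 95% counting intervals) and in all other kept cells (open); dotted lines mark 2-fold. Inpp4b, Plcb1, Pdlim5 and Ank3 lie below 0 in members and above 0 in the other cells.

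The ratios of the 12 genes ranked highest ran from 0.55 to 1.32. Slc29a1, a nucleoside transporter, stood at 56.2 CPM in knockout and 22.5 CPM in control members, a log2 ratio of 1.32 (0.75 to 1.92). Pold2, a subunit of DNA polymerase delta, stood at 74.9 CPM in knockout and 36.2 CPM in control members (1.05, 0.59 to 1.53), and its ratio in the other cells was 0.82. It gave 0.14 (-0.54 to 0.87) in female and 1.14 (0.38 to 1.91) in male members, and 0.77 without the cells that Scrublet marked. Ptpn6, the SHP phosphatase of blood cell receptors, stood at 63.7 CPM in knockout and 33.5 CPM in control members (0.93, 0.45 to 1.43), against 0.03 in the other cells, with ratios of 0.90 in female and 1.30 in male members. Rictor, an mTOR complex subunit, gave 0.92, Lyrm9 0.92, Atp13a3, a polyamine transporter, 0.99, and Prmt5, an arginine methyltransferase, 0.82. Atp13a3 gave 0.34 (-0.58 to 1.35) in female and 0.44 (-0.52 to 1.37) in male members, and 0.57 without the marked cells. Prmt5 gave 0.17 in female members, with an interval that included 0, and 1.10 in male members, Rictor 1.30 in female and 0.59 (-0.18 to 1.35) in male members, and Lyrm9 1.08 in female and 1.24 in male members. Mdm1, a centriole protein, stood at 139 CPM in knockout and 82.0 CPM in control members (0.76, 0.45 to 1.08), and Gse1 at 268 CPM in knockout and 183 CPM in control members (0.55, 0.34 to 0.76). Both were above 0 in each sex, at 0.99 in female and 1.22 in male members for Mdm1, and at 0.83 in female and 0.59 in male members for Gse1.

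The other highest genes were Cpox, a heme synthesis enzyme, Cd24a, a surface protein of erythroid progenitors among other cells, and Pla2g12a, a secreted phospholipase. Their ratios were 0.67, 0.76 and 0.86. Cd24a had a UMI in 19 of 63 knockout and 14 of 44 control members, and its highest cells gave 22.9% and 35.8% of all its UMIs. Without the cells that Scrublet marked, Cd24a gave -0.68, Cpox 0.22 and Slc29a1 0.70. Female and male members went opposite ways for Cd24a (3.56 and -3.11), Cpox (1.65 and -1.07), Pla2g12a (1.42 and -0.52) and Slc29a1 (1.45 and -0.67), though the male intervals of Pla2g12a and Slc29a1 included 0.

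Over all members the transcription factors of the lineage were close to equal in knockout and control cells, but some were higher in male knockout members. Of 32 listed factors, 23 reached 50 CPM, with 13 above and 10 below 0 and a median log2 ratio of 0.05. Fli1, the ETS factor of the lineage, had 689 CPM (655 to 726) in knockout and 699 CPM (657 to 743) in control members, a log2 ratio of -0.02 (-0.14 to 0.10). Runx1 gave -0.04 (-0.14 to 0.06), Gata1 0.12 (-0.16 to 0.39), Nfe2, the factor of platelet release, 0.05 (-0.31 to 0.42), and Zfpm1, the Gata1 cofactor, 0.21 (0.06 to 0.36). Gata2, the progenitor factor, stood at 89.5 CPM in knockout and 71.7 CPM in control members, a log2 ratio of 0.32 whose interval of -0.03 to 0.68 included 0. In male members the intervals lay above 0 for Gata2 at 0.93 (0.45 to 1.42), Zfpm1 at 0.50 (0.28 to 0.72) and Fli1 at 0.32 (0.15 to 0.49). Those of Runx1, Gata1 and Nfe2 included 0 in male members. In female members Zfpm1 gave -0.02 (-0.26 to 0.23), Gata2 0.20 (-0.39 to 0.83) and Fli1 0.09 (-0.10 to 0.28). Without the cells that Scrublet marked, Gata2 gave 0.43 and Fli1 0.17. The widest log2 ratios of the list were 0.66 for Lyl1, a factor shared with stem cells, and -0.54 for Cbfb, the Runx1 partner.

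Several megakaryocyte genes had a higher ratio outside the gate than inside it. Meis1, a homeodomain factor shared with stem cells, stood at 57.2 CPM in the other knockout cells and 30.9 CPM in the other control cells, a log2 ratio of 0.89 (0.85 to 0.93). Inside the gate it gave 0.10 (-0.04 to 0.25), and the difference between the 2 ratios was -0.78 (-0.93 to -0.64). Prkca, a protein kinase C of platelets, gave 0.16 inside and 0.79 outside, a difference of -0.63 (-0.74 to -0.53). The same held for Gp1bb (0.24 and 1.55), Itgb3 (-0.17 and 0.58), Gp9 (-0.12 and 0.43), Cd9 (0.11 and 0.51) and Rgs18 (-0.08 and 0.39), for each of which the interval of the difference lay below 0. Inside values moved with doublets: without the cells that Scrublet marked, Meis1 gave 0.25, Prkca 0.31, Gp1bb 0.47, Cd9 0.26, Rgs18 0.12, Gp9 0.04 and Itgb3 -0.05, each still under the value outside. In male members Cd9 gave 0.54 and Gp9 0.44, above their values outside, against 0.01 and -0.22 in female members. In Pf4-low neighbours Meis1 gave 0.45, between the other cells and the members, while Itgb3 gave 0.87 and Rgs18 0.49. The other kept cells mix many types, and cells with at least 5 UMIs of Itga2b, Plek and Rab27b formed a larger share of them in the knockout, as given above. Differences per cell and differences in cell mix cannot be told apart there.

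**Figure D4:**
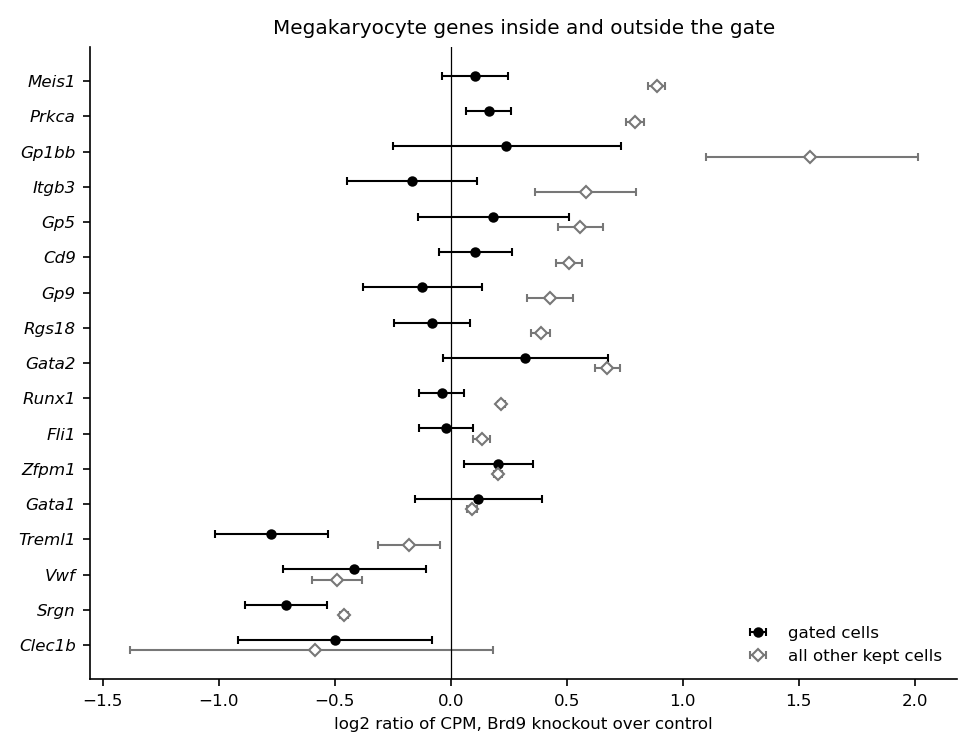
Log2 ratio of knockout over control CPM for 17 megakaryocyte genes in members (filled) and in all other kept cells (open), each with its 95% counting interval. Meis1 gives 0.10 in members and 0.89 in the other cells, while Treml1 and Srgn lie below 0 in both.

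Adhesion receptors were mostly level between knockout and control members, apart from Treml1. Of 22 listed receptors, 9 reached the minimum, with 4 above and 5 below 0 and a median of -0.12. Of these, 2 passed -0.5, beside 2.50% of all genes compared. Treml1 (chr17:48359916-48367176, plus strand) had 0 to 13 UMIs per cell with a median of 4 in knockout members, and 0 to 23 with a median of 5.5 in control members. It stood at 122 CPM (108 to 138) in knockout and 209 CPM (186 to 234) in control members, a log2 ratio of -0.77 (-1.02 to -0.53), and at -0.78 (-0.98 to -0.57) in Pf4-low neighbours. In female members Treml1 gave -0.83 and in male members -0.42 (-0.80 to -0.05). Clec1b gave -0.50 (-0.92 to -0.08), but -0.32 (-1.04 to 0.44) in female members, -0.19 (-0.82 to 0.42) in male members and -0.31 without the cells that Scrublet marked. Gp5 had 99.3 CPM in knockout and 87.5 CPM in control members (0.18, -0.14 to 0.51), and Gp1bb 45.9 CPM in knockout and 38.9 CPM in control members (0.24, -0.25 to 0.73). The gate genes themselves stood at 239 CPM in knockout and 271 CPM in control members for Itga2b, 483 CPM in knockout and 510 CPM in control members for Plek, a platelet kinase substrate, and 434 CPM in knockout and 586 CPM in control members for Rab27b, a granule-docking GTPase. These 3 values describe the chosen cells and were not read further.

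Receptors for soluble agonists were split evenly, with 3 of 6 above and 3 below 0 and a median of 0.10, which was 0.31 without the cells that Scrublet marked. F2r, a thrombin receptor, stood at 377 CPM in knockout and 310 CPM in control members (0.28, 0.11 to 0.45), and P2rx1, an ATP channel, at 82.4 CPM in knockout and 59.4 CPM in control members (0.47, 0.09 to 0.86). P2ry1, an ADP receptor below the minimum in knockout members, stood at 37.0 CPM in knockout and 50.6 CPM in control members (-0.45, -0.93 to 0.03).

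Most counted genes of alpha granule cargo had ratios below 0, but the list's median was near 0 within each sex. Of 24 listed genes, 9 reached the minimum, with 2 above and 7 below 0, while 49.7% of all genes compared were below 0. The median of the list was -0.24, beside 0.00 over all counted genes and 0.05 for the same genes in the other cells. The median was -0.06 in female members, -0.03 in male members and -0.12 without the cells that Scrublet marked. Only 1 passed -0.5 and 1 passed 0.5, beside 2.50% and 1.77% of all genes compared, and none passed 2-fold. Srgn, the proteoglycan that packs granules, had a log2 ratio of -0.71 (-0.89 to -0.53), from 233 CPM in knockout and 381 CPM in control members. It had a UMI in every member of both libraries, with a median of 8 UMIs per knockout cell and 12 per control cell. Vwf gave -0.42 (-0.72 to -0.11), Tgfb1, stored in platelets, -0.28 (-0.41 to -0.15), and Angpt1 -0.17 (-0.31 to -0.04). Within both sexes the intervals of Vwf and Angpt1 included 0, and Angpt1 gave 0.03 without the marked cells. Pdgfb, a platelet growth factor, stood at 52.5 CPM in knockout and 31.4 CPM in control members (0.74, 0.23 to 1.27). Ppbp did not reach the minimum, with 6 UMIs in knockout and 30 UMIs in control members, and 1 control cell held 56.7% of the control sum.

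Genes that form and release granules gave 5 of 12 above and 7 below 0, with a median of -0.06. Lyst, a lysosome trafficking regulator, gave -0.72 (-1.15 to -0.28), Rab38, a GTPase of dense granules, -0.50 (-0.86 to -0.15), and Vamp8, the platelet release SNARE, -0.50 (-0.70 to -0.30). Vamp8 was also lower outside the gate, at -0.36. Without the marked cells Lyst gave -0.47, and Rab38 gave -0.18 in female and -0.39 in male members, with intervals that included 0. Platelet signalling genes gave 10 of 28 above and 18 below 0 with a median of -0.05, while 49.7% of all genes compared were below 0. Of the 28, 3 passed -0.5, beside 2.50% of all genes compared. Besides Cavin2 these were Gng11, a G protein gamma subunit, at 60.9 CPM in knockout and 97.0 CPM in control members (-0.67, -1.03 to -0.32, and -0.18 in male members), and Fyn, a Src family kinase, at -0.57. Rap1b, the GTPase that switches integrins on, was level over all members at -0.02 (-0.08 to 0.05). Within the sexes it was not, at -0.16 (-0.27 to -0.05) in female and 0.52 (0.42 to 0.61) in male members. Cytoskeletal and proplatelet genes were split 19 to 19, with a median of 0.01. Tmsb4x, an actin-binding peptide, gave -0.05 (-0.08 to -0.01), with -0.04 in female and 0.26 in male members. Pdlim1, a LIM protein of actin fibres, gave 0.80 (0.28 to 1.34), but 0.42 without the marked cells and 0.26 in male members. Of 8 counted enzymes of arachidonic acid, 4 were above and 4 below 0, with Tbxas1, thromboxane synthase, at -0.54 (-0.85 to -0.22) in all members and -0.14 (-0.70 to 0.45) in female ones.

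Most mitotic genes had ratios above 0 over all members, and their median was farther from 0 in male than in female members. Of 42 counted G2/M genes, 33 were above and 9 below 0, while 50.3% of all genes compared were above 0. The median of the G2/M genes was 0.11, beside 0.00 for the same genes in the other cells. The median was 0.04 in female and 0.39 in male members. Per 10000 UMIs of a cell, G2/M genes summed to a median of 112 in knockout and 96.3 in control members, against 95.4 and 95.8 in the other knockout and control cells. Over all members S-phase genes did not share this, at 16 above and 17 below 0 with a median of -0.00, and with medians of 46.7 and 47.8 per 10000 UMIs. Of the S-phase genes named, Pcna gave -0.56 (-0.91 to -0.21) and Nasp -0.36 (-0.67 to -0.06) in male members. The male intervals of Cdca7 and Gins2 included 0, as did the female intervals of each of these genes. Of 21 genes of endomitosis and cytokinesis, 15 were above and 6 below 0, with a median of 0.18, which was 0.01 in female members, 0.42 in male members and 0.10 without the marked cells. The highest was Kif23, a kinesin of the cell midbody, at 50.6 CPM in knockout and 32.8 CPM in control members (0.63, 0.12 to 1.15), and at 0.36 without the marked cells. Within each sex the interval of Kif23 included 0, at 0.38 (-0.61 to 1.49) in female and 0.56 (-0.19 to 1.30) in male members. Dlgap5, a spindle protein, gave 0.53 (0.12 to 0.95) and Cdk1 0.12 (-0.08 to 0.31). In female members Dlgap5 gave 0.33 (-0.39 to 1.10) and Cdk1 -0.08 (-0.43 to 0.28). In male members they gave 0.77 (0.18 to 1.36) and 0.54 (0.27 to 0.81). Cdk6, a kinase of the G1 phase, gave -0.67 (-0.88 to -0.45), from 160 CPM in knockout and 254 CPM in control members. Genes of a shared cycle phase vary together from cell to cell, and with 63 and 44 cells a different mix of phases and a different level per cell cannot be told apart.

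Glycolytic enzymes gave 10 of 14 above and 4 below 0, while 50.3% of all genes compared were above 0. The median of these enzymes was 0.17 in members and 0.12 in the other cells. Tpi1, the triose isomerase, gave 0.38 (0.25 to 0.52), Gapdh 0.20 (0.11 to 0.28) and Slc2a3, a glucose transporter, -0.55 (-0.89 to -0.22). Genes shared with stem cells gave 4 of 11 above and 7 below 0, with a median of -0.06 inside the gate and 0.20 outside it. Markers of megakaryocyte-erythroid progenitors gave 2 of 9 above and 7 below 0, with a median of -0.38, and 3 of the 9 (Muc13, Apoe and Dach1) were 2-fold lower, beside 0.268% of all genes compared. The list was chosen with earlier results of these libraries known, so nothing is read from that share. Slc14a1, the urea transporter of red cells, was among the low genes of the members at 111 CPM in knockout and 194 CPM in control members (-0.80, -1.05 to -0.55), with -0.38 in male members. Of 30 genes that had differed over the whole libraries, 16 reached the minimum in members, with 5 above and 11 below 0. That list was taken from these samples and is no independent evidence.

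Several marker lists of other cell types summed to low levels. Mpo and Prtn3, which the gate limits, stood at 10.3 and 16.4 CPM in knockout and 10.9 and 28.7 CPM in control members. Neutrophil markers summed to 10.8 CPM in knockout and 14.3 CPM in control members, macrophage markers to 5.62 CPM in knockout and 8.88 CPM in control members, hepatocyte markers to 7.96 CPM in knockout and 11.6 CPM in control members, and lymphoid markers to 29.0 CPM in knockout and 30.7 CPM in control members. Procr, Vcam1, Il7r and Dntt were at 0 in both. Other lists were higher. Granulocyte-monocyte progenitor markers summed to 705 CPM in knockout and 865 CPM in control members, of which Calr, a chaperone of many cell types, gave 670 CPM in knockout and 819 CPM in control members. Mast and basophil markers summed to 304 CPM in knockout and 452 CPM in control members, with Srgn, which megakaryocytes also make, at 233 CPM in knockout and 381 CPM in control members. Cpa3, a mast cell marker that the gate does not limit, had 28 UMIs in 1 knockout member. Endothelial and stromal markers summed to 113 CPM in knockout and 128 CPM in control members, and Egfl7 gave 79.2 CPM in knockout and 82.7 CPM in control members. Erythroid markers stood at 2352 CPM in knockout and 2248 CPM in control members, against 4342 CPM in the other knockout cells and 5076 CPM in the other control cells. Globins summed to 1141 CPM in knockout and 1272 CPM in control members. Hbb-bt, an adult beta globin, stood at 85.7 CPM in knockout and 537 CPM in control members (-2.65, -2.89 to -2.41), but 1 control cell held 54.1% of its control UMIs. Hbb-bs stood at 544 CPM in knockout and 303 CPM in control members, and 1 knockout cell held 49.1% of its knockout UMIs.

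Members were then split into 3 groups of equal size over both libraries by their Pf4 per 10000 UMIs, which rises as megakaryocytes mature. The low, middle and high groups held 19, 20 and 24 knockout cells and 17, 15 and 12 control cells. The sexes were spread unequally: from low to high, 4, 9 and 6 knockout and 11, 9 and 10 control cells were male, and 14, 8 and 16 knockout and 6, 6 and 2 control cells were female. Pf4 itself gave a log2 ratio of 0.20 over all members, 1.25 in female and 0.01 in male members, which describes the chosen cells. Inpp4b stood at 156, 116 and 128 CPM from low to high Pf4 in knockout members, and at 195, 302 and 550 CPM in control members. Its log2 ratio was -0.33 in the low, -1.38 in the middle and -2.11 (-2.48 to -1.75) in the high group. Within the high group it was -3.21 (-4.23 to -2.34) in male cells and 1.16 (-0.26 to 3.07) in female cells, of which the control had 2. Treml1 was higher with more Pf4 in both, at 68.6, 109 and 186 CPM in knockout and 161, 178 and 311 CPM in control members. Apoe was lower with more Pf4 in both, at 344, 138 and 94.2 CPM in knockout and 674, 382 and 352 CPM in control members, with ratios of -0.97, -1.47 and -1.90, and it was below 0 in each group in each sex. Itgb3 stood at 81.9, 131 and 128 CPM in knockout and 60.8, 112 and 246 CPM in control members, with a ratio of -0.95 (-1.38 to -0.52) in the high group, at -1.23 in male and -0.78 (-1.62 to 0.17) in female cells. Fli1 was near equal over all members but not within these groups, at 814, 596 and 696 CPM in knockout and 460, 704 and 1016 CPM in control members. Its ratio was 0.82 (0.60 to 1.05) in the low and -0.55 (-0.74 to -0.35) in the high group. In the low group it was above 0 in both sexes, at 0.45 in female and 1.22 in male cells, but in the high group it was -0.42 (-0.72 to -0.13) in male cells and 0.42 in female cells, with an interval that included 0. Single cells weigh in such groups: 1 cell held 25.7% of the Fli1 UMIs of the low knockout group, and 1 held 30.7% of the Inpp4b UMIs of the high control group. Each group holds 12 to 24 cells, and differences between the groups' ratios were not tested.

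**Figure D5:**
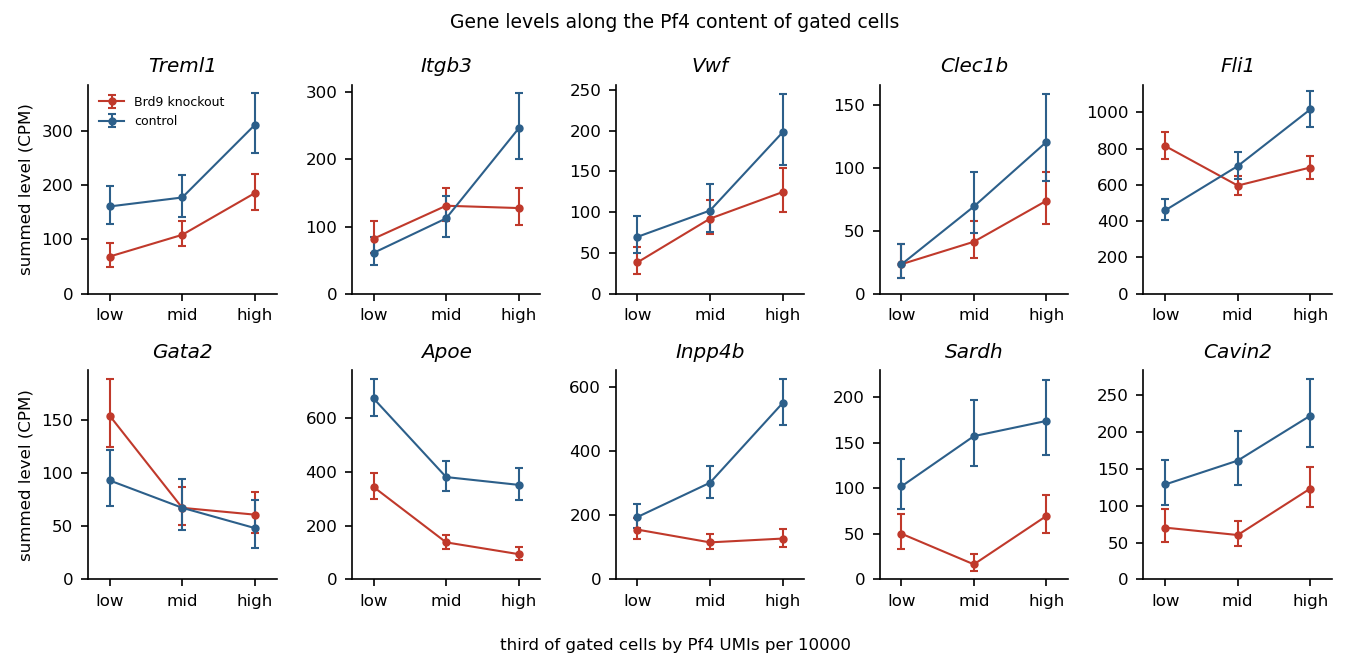
CPM of 10 genes in members split by Pf4 content into low, middle and high groups, for the Brd9 knockout and the control, with 95% counting intervals. Inpp4b lies between 116 and 156 CPM in knockout members and between 195 and 550 CPM in control members, where it is highest in the high group.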

How the data were processed

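Lineage-negative Kit-positive E14.5 fetal liver cells were measured in 2 libraries. The kit was 10x Genomics 3' v3.1, per the labels' protocols. The UMI counts per gene and cell barcode were deposited as whole numbers without normalization, made with Cell Ranger 7.2.0 on mm10, per the submitters' processing notes. The treatment of intronic reads is not given in sources used here. Barcodes were kept from 1000 genes and 2000 UMIs upwards and with mitochondrial UMIs of 10% or less (7001 of 7289 knockout, 7100 of 7399 control). Doublets were not removed; Scrublet in scanpy 1.11.5 (expected rate 0.06) served as an alternative. The members and gene lists were chosen with earlier results of these data known.

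UMIs of members were summed per library and given as CPM. The log2 ratio, knockout over control, has a conditional exact interval, sums exact Poisson intervals, shares exact Clopper-Pearson intervals and ratios of shares log-normal ones. The floor for a count of 0 was 3 counts. Ranked genes were the 12 highest and 12 lowest by the interval bound nearest 0, among genes that reached 50 CPM in 1 library or both, with a UMI in at least 10% of members of the higher library and no cell with over 25% of its UMIs there. Sex-linked Xist, Tsix and Y genes, mitochondrial, ribosomal, predicted and gate genes were left out of the ranking. Up to 4 genes per list and further fixed genes were also named, besides Cbfb and Fyn, which were chosen after their values were seen. Cells were female with at least 3 Xist and at most 1 Y-linked UMI, and male with at most 1 Xist UMI. Coordinates came from GENCODE M21, which held 32235 of 32285 gene IDs. Ratios and intervals were checked on simulated Poisson counts, which follow the model that the intervals assume. Those counts held no spread between cells, so the check does not cover UMIs gathered in single cells. Values of some genes are not reported here. Alternatives covered the Pf4 limit, doublets, sex, erythroid cells, the minimum level, scaling and the cell with most UMIs of a gene.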

Additional observations from a re-analysis of the deposited data

Results flagged for a closer look

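Within members, 9 named genes had log2 ratios of knockout over control on opposite sides of 0 in female and in male cells, with both counting intervals clear of 0. The difference between the sexes was not tested. Most are red cell genes: Hbb-bt gave 1.71 in female and -5.51 in male members, Hbb-bs 3.52 and -2.80, Hba-a1 4.22 and -3.03, Hba-a2 2.39 and -2.99, Klf1 2.21 and -4.87, Cd24a 3.56 and -3.11, and Cpox 1.65 and -1.07. The remaining ones were small: Gpx4 gave -0.32 and 0.19, and Rap1b -0.16 and 0.52. Over all genes compared, 45 of 3726 (1.21%) were of this kind. Female members numbered 38 in the knockout and 14 in the control, and male members 19 and 30. In members of both sexes together, 1 control cell held 54.1% of the control UMIs of Hbb-bt, and 1 knockout cell held 49.1% of the knockout UMIs of Hbb-bs. In each library, 1 member had over 1% globin UMIs. It was a female cell in the knockout and a male cell in the control, and Scrublet marked both. Without the marked cells, the ratio over all members went from 0.55 to -1.05 for Klf1 and from 0.76 to -0.68 for Cd24a. Cpox went from 0.67 to 0.22. The intervals do not cover UMIs gathered in single cells. Ratios within each sex were not recomputed without such cells, so how far they rest on them was not tested.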

How the results depend on the processing

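No paired analysis was possible because there was 1 library per genotype and the labels give no replicate numbers. For 117 named genes, 1566 of 1749 values recomputed under the alternatives kept their sign, and 20 of the 24 ranked genes kept it under each setting run. Some settings could hardly change a sign, since the median ratio scaling factor was -0.000727 on the log2 scale. Leaving out both kinds of doublet kept 56 knockout and 42 control members, as leaving out Scrublet-marked cells alone did. These counts are therefore not made of independent checks. Among genes past 2-fold in all members, 2 values changed sign: Hbb-bt gave 1.71 in female members and Slc29a1 gave -0.67 in male members. The other sign changes were in genes under 2-fold, such as Cd24a (-3.11) and Cpox (-1.07) in male members. The share ratio of 1.45 lay between 1.06 (female cells) and 1.76 (gate without Pf4) under all alternatives run, and its interval excluded 1 in 3 of them (Pf4 of at least 5 UMIs, of at least 20 UMIs, and the gate without Pf4). The 2 genes 2-fold higher became 1 with Pf4 of at least 5 UMIs, 9 with at least 20, 9 with the Pf4 limit scaled to 10000 UMIs, 4 without cells of both sexes' transcripts, 4 without erythroid-positive members (at least 3 UMIs of erythroid markers together), 6 without members over 1% globin, 39 in female and 19 in male members, 14 at a minimum of 20 CPM, 0 at 100 CPM, 2191 with no minimum, 1 with CPM averaged over cells, 5 without each gene's top cell and 66 past 0.5. The 10 genes 2-fold lower became 45 in female and 61 in male members, 41 at 20 CPM, 1781 with no minimum and 93 past 0.5. Splitting the Pf4 groups by sex, leaving out erythroid-positive members, leaving out both kinds of doublet together and the 0.5 limit were chosen after seeing the data. Of 324 recomputed list medians, 10 moved beyond their limit, which was the standard deviation of the ratios among a list's genes. Shifts smaller than that spread were not counted, so the count says little of how stable the medians were. With 63 and 44 members, genes under 50 CPM were too thin to compare.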
